A study of Mus musculus with 15 samples.

Results

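The clustered, replication-dependent histone genes were described in mouse embryonic fibroblasts that were wild type (WT) or lacked the histone methyltransferase NSD2 (KO), with and without interferon beta. Members were all gene symbols that begin with Hist1h, Hist2h, Hist3h or Hist4h, 68 of the 24015 genes listed in the count files. Of these, 57 had at least 10 counts in 2 or more libraries and were analysed. They comprised 5 of 6 linker histone H1 genes, 13 of 18 H2A genes, 17 of 19 H2B genes, 10 of 12 H3 genes and 12 of 13 H4 genes. The detected H2B genes include Hist3h2bb-ps, whose symbol marks a pseudogene, and it is counted with them throughout. The cells were c57bl/6 fibroblasts of the labelled genotype Nsd2(+/+) or its knockout, and no allele, promoter or clone was named in the labels. Naive cells were untreated (0 h) or had received 100 units/ml of recombinant interferon beta (IFN) for 2 h. Pretreated cells had been given IFN for 3 h, washed, kept 24 h without it and then taken directly (0 h) or after restimulation for 2 h. Each of the 8 groups had 2 RNA-seq libraries, except KO naive 2 h with 1, so there were 8 WT and 7 KO libraries.

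These genes supply the histones that package newly copied DNA, and their transcripts accumulate mainly in S phase. Core histones H2A, H2B, H3 and H4 form the nucleosome, and linker histone H1 binds the DNA where it enters and leaves it. Their mRNAs normally end in a stem-loop, bound by SLBP, rather than in a poly(A) tail, and the H2A and H2B genes in particular often stand in divergent pairs that share a promoter. NSD2, named Whsc1 in the files, methylates lysine 36 of histone H3.

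Libraries held 17170845 to 44116418 counts assigned to genes, with a median of 28585502. The targeted gene Whsc1 had 105.5 to 150.7 counts per 1000000 gene counts (CPM) in WT and 91.5 to 123.9 CPM in KO libraries, and these ranges overlapped. Its KO-against-WT log2 change lay between -0.39 and -0.18 in the 4 conditions, and gene-level counts cannot show a deletion of part of the gene, so WT and KO stand here for the labels. The 10 fibroblast markers summed to 11420 to 20670 CPM; of 19 markers of other cells 18 were in the files, 4 of these were at 0, and their sum was 10.0 to 13.3 CPM in WT and 146 to 333 CPM in KO, where Col2a1 gave 140.1 to 327.7 CPM; its part in the KO differences was not tested. The ribosomal RNA precursor Rn45s and Lars2, a mitochondrial tRNA synthetase gene, took 10.6% to 29.4% of the gene counts. Because that share varied, changes were computed with composition-corrected (TMM) library sizes, and scaling by library size alone moved the median of all genes by up to -0.25 (log2, naive WT after IFN). Replicates differed in histone level: on TMM-scaled counts replicate 2 was above replicate 1 for all 57 members in WT pretreated 0 h (median log2 ratio 0.55), for 55 in KO pretreated 2 h (0.28), 53 in KO naive 0 h (0.22) and 55 in WT pretreated 2 h (0.19; 24 in CPM). In the other 3 groups with 2 libraries the median ratio was 0.01 to 0.03. Over these 7 pairs the medians of 28 G1/S genes were -0.09 to 0.02 and those of 22 G2/M genes -0.10 to 0.02. No separate cultures or animals are named for the replicates; the p-values therefore reflect library-to-library spread, which may be technical.

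The H1 promoters are shown because 1 linker gene went against the other 4 in the knockout. They are the 250 bases before the RefSeq start (build GRCm38.p6, printed 5′ to 3′ on the gene's strand), and capitals mark matches on either strand to the TATA box (TATAAA), the CCAAT box (CCAAT), the octamer bound by POU factors (ATTTGCAT) and the H1 element (AAACACA). Hist1h1a (RefSeq H1f1) starts after chr13:23763418-23763667 on the plus strand, Hist1h1b (H1f5) after chr13:21780626-21780875 on the minus strand, and Hist1h1e (H1f4) after chr13:23622559-23622808 on the minus strand.
Hist1h1a: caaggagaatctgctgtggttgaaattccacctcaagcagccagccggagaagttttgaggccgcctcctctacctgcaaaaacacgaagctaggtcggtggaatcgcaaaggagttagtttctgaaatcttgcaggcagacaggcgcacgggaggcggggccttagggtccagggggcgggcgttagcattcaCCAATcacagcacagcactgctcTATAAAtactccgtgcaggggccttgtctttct
Hist1h1b: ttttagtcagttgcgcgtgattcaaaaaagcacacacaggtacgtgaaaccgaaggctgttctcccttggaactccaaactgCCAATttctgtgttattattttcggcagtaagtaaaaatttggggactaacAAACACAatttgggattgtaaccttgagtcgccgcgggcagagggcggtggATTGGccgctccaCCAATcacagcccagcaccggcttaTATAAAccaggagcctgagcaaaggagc
Hist1h1e: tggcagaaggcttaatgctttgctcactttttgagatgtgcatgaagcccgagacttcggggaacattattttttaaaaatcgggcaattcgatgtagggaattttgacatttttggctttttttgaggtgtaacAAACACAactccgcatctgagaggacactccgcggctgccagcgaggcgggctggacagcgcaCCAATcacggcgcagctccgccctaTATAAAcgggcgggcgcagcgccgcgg
All 6 H1 windows held CCAAT, against 33.8% of 32851 RefSeq windows of this length. AAACACA, an element known from H1 promoters, was in 5 of the 6, that of the undetected Hist1h1t included, against 6.25% of all windows. It was not in the Hist1h1a window, which holds AAACACG, different in the last base only. TATAAA was in 4 of the 6, and in 12.4% of all windows. Aligned end to end with gaps allowed, the H1 windows shared 58.4% to 67.2% of their bases. H4 windows shared 51.6% to 68.4% in the same way, apart from Hist1h4m with Hist1h4n and Hist1h4j with Hist1h4k. The H1 range is therefore not particular to H1.

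The 3 genes furthest above WT in the knockout, Hist1h2ak, Hist1h4k and Hist1h2bn, lie close together on chromosome 13, and their promoters are shown to place them, with that of the neighbouring Hist1h4j. Hist1h2ak (H2ac15) and Hist1h2bn (H2bc15) are transcribed away from each other, and the 163 bases between their starts, chr13:21753913-21754075, are printed on the plus strand, in the direction of Hist1h2bn. The windows of Hist1h4j (H4c11, chr13:21734784-21735033, plus strand) and Hist1h4k (H4c12, chr13:21750554-21750803, minus strand) follow.
Hist1h2ak-Hist1h2bn: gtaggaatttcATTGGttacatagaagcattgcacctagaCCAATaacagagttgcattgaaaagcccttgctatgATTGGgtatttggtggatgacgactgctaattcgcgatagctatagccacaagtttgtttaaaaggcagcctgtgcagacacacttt
Hist1h4j: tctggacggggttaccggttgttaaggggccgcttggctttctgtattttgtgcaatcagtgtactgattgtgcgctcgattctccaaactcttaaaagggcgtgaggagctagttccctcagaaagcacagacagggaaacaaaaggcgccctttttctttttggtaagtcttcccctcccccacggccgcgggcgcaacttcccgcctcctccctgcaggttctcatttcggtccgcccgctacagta
Hist1h4k: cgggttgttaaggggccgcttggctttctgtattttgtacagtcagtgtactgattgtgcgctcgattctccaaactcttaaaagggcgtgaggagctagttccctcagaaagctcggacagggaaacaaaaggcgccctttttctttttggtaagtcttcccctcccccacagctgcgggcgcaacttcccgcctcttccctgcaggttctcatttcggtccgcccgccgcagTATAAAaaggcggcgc
The Hist1h4j and Hist1h4k windows had 227 of 250 bases in common. The Hist1h4j window ends inside the stretch that lines up with TATAAA of Hist1h4k. Whether Hist1h4j has that motif there cannot be read from its window. CCAAT occurred in all 17 H2A and all 17 H2B windows, in 8 of 10 H3 windows and in 3 of 12 H4 windows. The octamer ATTTGCAT occurred in 7 of 17 H2A and 7 of 17 H2B windows and in no H1, H3 or H4 window, against 1.6% of all windows. Windows of divergent neighbours can overlap, so the same match can be counted for both an H2A and an H2B gene. Hist1h2be was counted with windows at different starts. The 4 motifs were chosen with the expression results known, and a match describes letters, not binding.

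Added over members and averaged over the 15 libraries, H2B transcripts were the most abundant class at 1079 CPM (31.5% of all member counts), followed by H1 at 858 CPM (25.04%), H4 at 715 CPM (20.9%), H3 at 444 CPM (12.9%) and H2A at 331 CPM (9.65%). Within classes the highest mean level was that of Hist2h2bb with 410.2 CPM, Hist1h1e with 216.5 CPM, Hist1h4d with 145.4 CPM, Hist1h3f with 88.1 CPM and Hist2h2ac with 56.3 CPM. Per kilobase of annotated gene the order of these 5 was Hist2h2bb (832 CPM per kb), Hist1h4d (362), Hist1h1e (277), Hist2h2ac (120) and Hist1h3f (97.6), and among H3 genes Hist1h3c (126) was above Hist1h3f on this scale. At the low end was the H2B gene Hist3h2ba at 0.806 CPM. The first place differed by genotype for H1 and H2A. In WT Hist1h1a (mean 293 CPM per kb) was above Hist1h1e (239) in every library, and in KO Hist1h2ak (mean 169 CPM per kb) was above Hist2h2ac (139.5) in every library.
Of the 11 members below the detection minimum, Hist1h2ap, Hist1h2bq, Hist1h2br, Hist2h2aa1, Hist2h3c1 and Hist2h3c2 had no count in any library. For reads assigned to 1 gene this allows up to 0.00663 CPM over all libraries (3 counts, counting error only). Of their 50-base stretches, 2.68% to 11.3% were unique among members in Hist1h2bq, Hist1h2ap, Hist2h2aa1 and Hist1h2br. The share was 36.5% in Hist2h3c2 and 65.3% in Hist2h3c1, so a count of 0 need not mean that a gene was silent. The others were the testis H1 gene Hist1h1t, Hist1h2aa, Hist1h2ao, Hist1h4n and Hist2h2aa2. Reads that fit several genes equally were kept apart from the gene counts, as 1.16 to 1.88 non-unique alignments per gene count. Among detected members 8 had under 20% of their 50-base stretches unique among the members and 35 had at least 50%, so a count can understate a gene with near-identical copies.

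**Figure D1:**
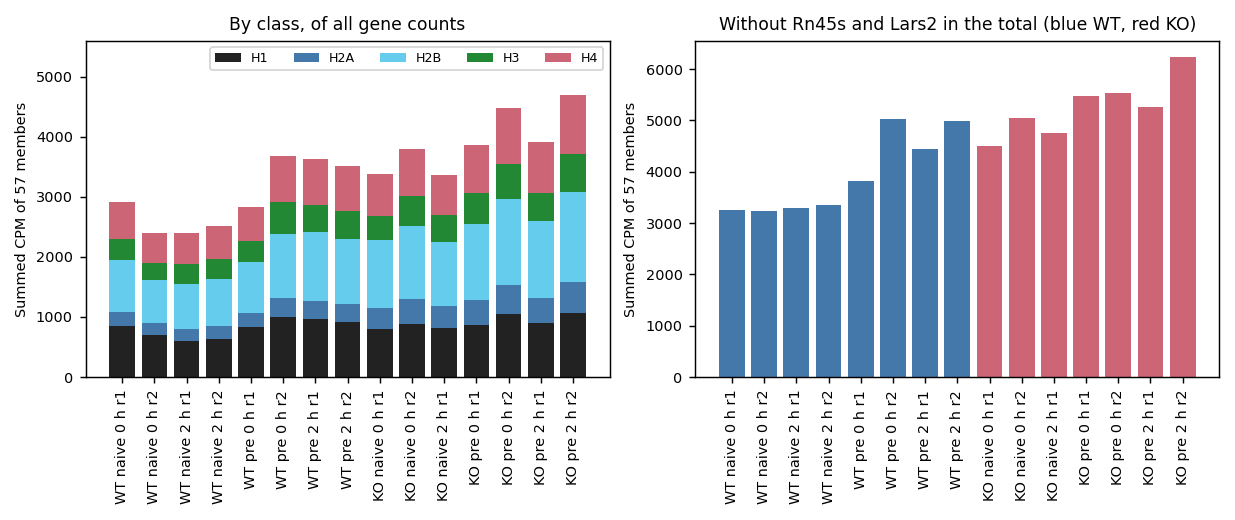
Summed CPM of the members, stacked by histone class, for each of the 15 libraries (left), and the same with Rn45s and Lars2 left out of the totals (right). WT libraries lie between 2397 and 3673 CPM and KO libraries between 3362 and 4700 CPM; without the 2 transcripts the ranges are 3227 to 5036 and 4504 to 6242 CPM.

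The summed level of all members was higher in the knockout in each condition. In naive 0 h cells it was 2653 ± 361 CPM in WT and 3588 ± 304 CPM in KO (SD, n = 2 each), and after 2 h of IFN 2456 ± 83.8 CPM in WT (n = 2) and 3362 CPM in the single KO library. In pretreated 0 h cells it was 3255 ± 592 and 4179 ± 436 CPM, and after restimulation 3573 ± 78.8 and 4309 ± 552 CPM (SD, n = 2 each). The 2 libraries of each genotype did not overlap within a condition, but over all conditions WT reached 3673 CPM and the lowest KO library 3362 CPM. In bulk RNA, more cells in S phase and more histone RNA per cell cannot be told apart.

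Knockout was compared with WT at each condition by edgeR's quasi-likelihood test with Benjamini-Hochberg adjustment over 13802 genes. In naive 0 h cells 50 of 57 members were higher and 2 lower (adjusted p below 0.05), where 34.3% of all genes were higher and 32.7% lower. The median log2 change of members was 0.66, against 0.01 over all genes. After 2 h of IFN, 42 members were higher and 2 lower (all genes 32.3% and 28.8%), with a median of 0.58. In pretreated cells 38 were higher and 3 lower at 0 h (32.8% and 31.8% of all genes; median 0.38) and 37 higher and 2 lower at 2 h (35.6% and 30.7%; median 0.35).
The pretreated 0 h count rests in part on the unequal WT replicates: without WT replicate 1 it was 20 higher and 8 lower, and without WT replicate 2 it was 51 higher and 2 lower. At pretreated 2 h, 19 were higher and 3 lower without WT replicate 1, 19 and 4 without KO replicate 2, and 19 and 2 with DESeq2.
In all 4 conditions 33 members were called higher, against 22.9% of all genes, and Hist1h1a and Hist1h3a were called lower, against 20.8% of all genes. In CPM, 12 members had every KO library above every WT library (13.4% of all genes did), and Hist1h1a alone had every KO library below (14.6% of all genes). The 12 were Hist1h1b and Hist1h1c; Hist1h2ak, Hist2h2ab and Hist3h2a; Hist1h2bl, Hist1h2bn and Hist3h2ba; and Hist1h4i, Hist1h4j, Hist1h4k and Hist4h4.

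Linker histones split by gene. Hist1h1a had 212, 180, 154, 163, 241, 261, 278 and 256 CPM in the 8 WT libraries (naive 0 h, naive 2 h, pretreated 0 h, pretreated 2 h, 2 each) and 14.9, 14.7, 10.8, 19.7, 22.5, 19.5 and 19.8 CPM in the 7 KO libraries in the same order. The highest KO library was below the lowest WT library, and the mean level was 12.5-fold lower. Its log2 change was -3.66 ± 0.061 (SE), -3.83 ± 0.087, -3.65 ± 0.058 and -3.73 ± 0.058 in the 4 conditions, with edgeR adjusted p from 1.79e-29 to 2.86e-25. None of its 50-base stretches occurs in another member, so these counts are not shared within the family.
Hist1h1b, another replication-dependent H1 variant, went the other way: 90.5 to 142 CPM in WT and 191 to 259 CPM in KO libraries, with no overlap. Its log2 change was 0.81 ± 0.057, 1.08 ± 0.068, 0.70 ± 0.056 and 0.88 ± 0.056 (edgeR adjusted p 1.92e-14 to 3.78e-12). Hist1h1c lay at 116 to 182 CPM in WT and 189 to 259 CPM in KO, and its log2 change of 0.40 to 0.79 was called in all 4 conditions. Hist1h1d (log2 0.37 to 0.94) was also called in all 4, and Hist1h1e (0.19 to 0.78) in 3, not in pretreated 0 h cells (0.19 ± 0.087, edgeR adjusted p = 0.0538).

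**Figure D2:**
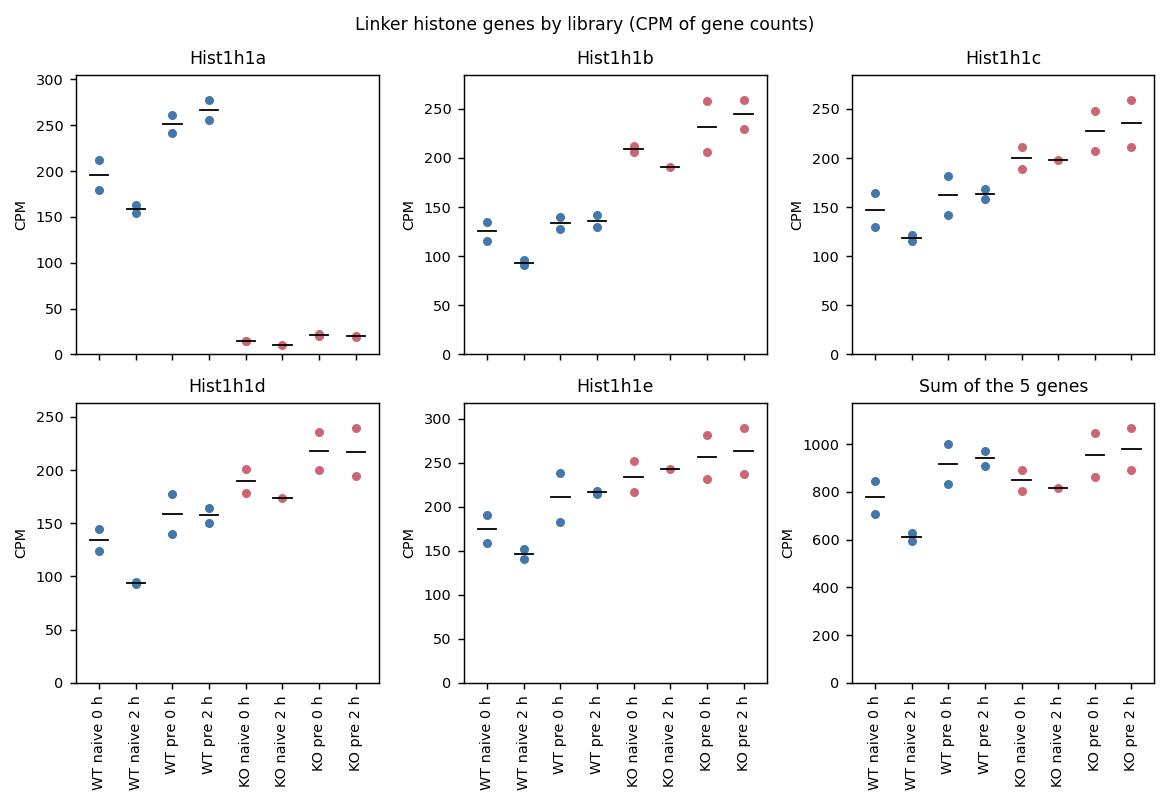
CPM of the 5 detected linker histone genes and their sum in every library, grouped by condition (points, libraries; bars, group means; WT and KO by colour). Hist1h1a falls from at least 154 CPM in WT to at most 22.5 CPM in KO libraries. The other 4 have higher group means in KO in each condition, but Hist1h1d and Hist1h1e overlap between genotypes across all libraries. In CPM, without composition correction, the sum overlaps between genotypes except in naive cells after 2 h of IFN.

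Added together, the 5 genes gave 777 ± 99.4 CPM in naive WT and 848 ± 60.5 CPM in naive KO cells at 0 h (SD, n = 2 each). In CPM this difference was smaller than the SD in WT, but the WT spread depended on the scaling. In naive 0 h WT the median log2 ratio of replicate 2 to replicate 1 of the 5 genes was -0.24 in CPM and 0.04 on TMM-scaled counts. Sums on TMM-scaled counts were not computed, so the CPM sums do not show that the genotypes were alike. At naive 2 h the sum was 610 ± 23.2 CPM in WT (n = 2) and 817 CPM in the single KO library, which was above both WT libraries (594 and 626 CPM). In pretreated cells the sum was 917 ± 117 and 955 ± 128 CPM at 0 h and 940 ± 44.0 and 979 ± 123 CPM at 2 h (SD, n = 2 each), and the genotypes overlapped at both times. Over all libraries the sum ranged from 594 to 999 CPM in WT and from 806 to 1066 CPM in KO. Hist1h1a made up 25.03% to 28.9% of it in WT and 1.32% to 2.28% in KO libraries, whereas the Hist1h1b share was 14.04% to 16.3% in WT and 23.4% to 25.7% in KO. Without Hist1h1a the sum was 440 to 738 CPM in WT and 791 to 1046 CPM in KO. The replication-independent linker gene H1f0, which non-dividing cells express, was also higher in KO, at 57.9 to 94.8 CPM in WT and 168 to 272 CPM in KO libraries (log2 1.72 ± 0.043 at naive 0 h, edgeR adjusted p = 2.38e-24). Of 11 listed replication-independent histone genes, 8 were higher in KO and 2 lower at naive 0 h (34.3% and 32.7% of all genes, median log2 0.27). At naive 2 h 7 were higher and 1 lower, at pretreated 0 h 6 and 2, and at pretreated 2 h 6 and 3. The shares over all genes were those given above. With H1f0 and H1fx added, the linker sum at naive 0 h was 863 ± 112 CPM in WT and 1120 ± 65.5 CPM in KO (SD, n = 2 each), with no overlap, and over all libraries it was 652 to 1083 CPM in WT and 1013 to 1301 CPM in KO.

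Among H2A and H2B genes the divergent pair Hist1h2ak and Hist1h2bn differed most. Hist1h2ak had 13.1, 11.8, 12.2, 13.7, 14.9, 19.4, 17.4 and 18.1 CPM in the WT libraries, and 73.4, 78.9, 69.5, 90.2, 110, 98.0 and 115 CPM in the KO libraries, in the order given above. Hist1h2bn had 13.2, 13.6, 11.8, 12.5, 16.9, 17.6, 21.8 and 20.3 CPM in WT, and 51.6, 53.7, 45.0, 59.5, 70.1, 58.4 and 74.8 CPM in KO. For both genes the lowest KO library was more than 2-fold above the highest WT library.
The log2 change of Hist1h2ak was 2.70 ± 0.097, 2.48 ± 0.11, 2.45 ± 0.090 and 2.62 ± 0.089, and that of Hist1h2bn 2.08 ± 0.094, 1.94 ± 0.11, 1.83 ± 0.088 and 1.69 ± 0.085, in the 4 conditions (edgeR adjusted p at most 2.69e-15). Only 47.7% of the 50-base stretches of Hist1h2ak and 13.6% of those of Hist1h2bn are unique among members; the first shares most with Hist1h2ao, which was below the detection minimum, and the second with Hist1h2bk, whose change was smaller (log2 0.35 to 0.79).
Of all H2A genes 13 of 13 were called higher at naive 0 h (median log2 0.86), and of H2B genes 16 of 17 (median 0.66). Hist2h2bb, the H2B gene with the highest mean level, had 286 to 433 CPM in WT and 421 to 546 CPM in KO libraries, with log2 changes of 0.56 ± 0.045, 0.55 ± 0.055, 0.44 ± 0.045 and 0.40 ± 0.045. Hist3h2ba had log2 changes of 1.01 to 1.71, on levels of 0.242 to 0.684 CPM in WT and 0.753 to 1.67 CPM in KO libraries.

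H3 and H4 genes were less uniform. Of the H3 genes 9 of 10 were called higher at naive 0 h (median log2 0.69), with Hist2h3b at 1.21 ± 0.20. The exception, Hist1h3a, had 39.4, 32.9, 37.5, 37.5, 42.2, 65.8, 52.8 and 54.9 CPM in WT and 19.6, 25.7, 24.7, 29.0, 34.4, 25.4 and 38.1 CPM in KO libraries. Within each condition its WT libraries were above the KO libraries, but the genotypes overlapped across conditions.
Its log2 change was -0.58 ± 0.16, -0.56 ± 0.19, -0.86 ± 0.14 and -0.75 ± 0.14. The naive 2 h value was not called without WT replicate 1 (edgeR adjusted p = 0.052) or with DESeq2 (adjusted p = 0.13), and without WT replicate 2 the pretreated 0 h value was -0.47. Hist1h3a is the divergent neighbour of Hist1h1a.
Of the H4 genes 8 of 12 were called higher at naive 0 h (median log2 0.45). Hist1h4k had 10.3 to 18.4 CPM in WT and 61.3 to 86.1 CPM in KO libraries, with log2 changes of 2.40 ± 0.10, 2.61 ± 0.12, 2.23 ± 0.098 and 2.38 ± 0.098 (edgeR adjusted p at most 1.79e-17). Hist1h4j, whose promoter window is 90.8% identical, had 3.27 to 8.79 CPM in WT and 10.6 to 17.4 CPM in KO libraries and log2 changes of 1.08 to 1.52, smaller than those of Hist1h4k. Only 28.5% of the 50-base stretches of Hist1h4k are unique among members, against 75.4% of those of Hist1h4j. Hist1h4k shares most with Hist1h4a. Hist4h4, alone on chromosome 6, had 29.4 to 50.8 CPM in WT and 55.7 to 100.0 CPM in KO, with log2 changes of 0.91 to 1.30. By contrast Hist1h4c had log2 changes of -0.11 to -0.03 and no call, and Hist1h4a was called lower only at pretreated 0 h (-0.22 ± 0.099, edgeR adjusted p = 0.0482), which 7 of 11 alternatives did not call; it was -0.01 without WT replicate 2.

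**Figure D3:**
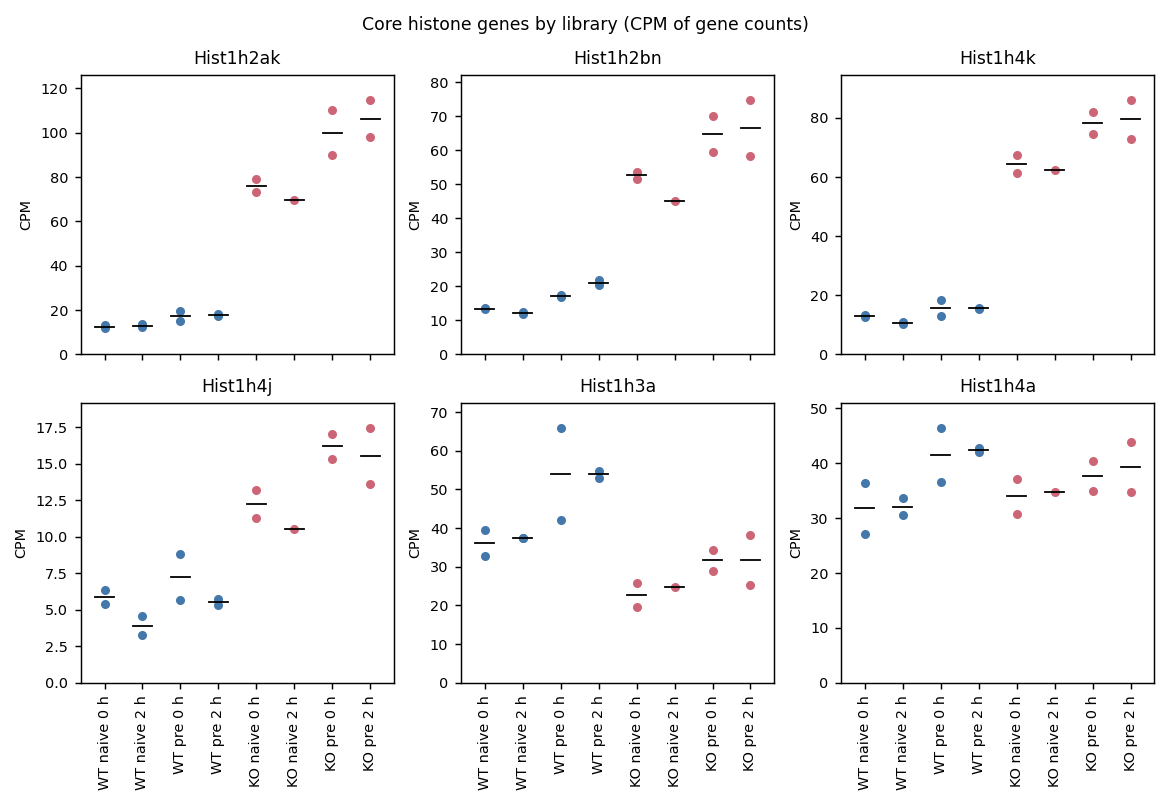
CPM of 6 core histone genes in every library, grouped by condition (points, libraries; bars, group means; WT and KO by colour). Hist1h2ak, Hist1h2bn, Hist1h4k and Hist1h4j lie higher in every KO than in every WT library, while Hist1h3a and Hist1h4a overlap between genotypes.

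Along the chromosomes, in GENCODE order, the members form 8 uninterrupted runs: 1 on chromosome 11 (3 members), 5 on chromosome 13, 1 on chromosome 3 (10) and Hist4h4 on chromosome 6. The 13 detected genes of the chromosome 13 run from Hist1h2bl to Hist1h2br held Hist1h2ak, Hist1h2bn, Hist1h4j and Hist1h4k and had a median naive 0 h log2 change of 0.94, with 12 called higher. The 9 genes from Hist1h1c to Hist1h1a had a median of 0.34, with 5 called higher and the 2 lower calls, at its end. At pretreated 0 h these medians were 0.70 and 0.01. Of 15 divergent pairs with both members detected, 14 had both partners above WT at naive 0 h, the partners' log2 changes differing by a median of 0.18. The exception was Hist1h3a and Hist1h1a, whose changes differed by 3.08. At naive 0 h 54 of all 57 members were above WT, so the pair count does not set pairs apart. Gaps between members that are not paired were not computed.

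**Figure D4:**
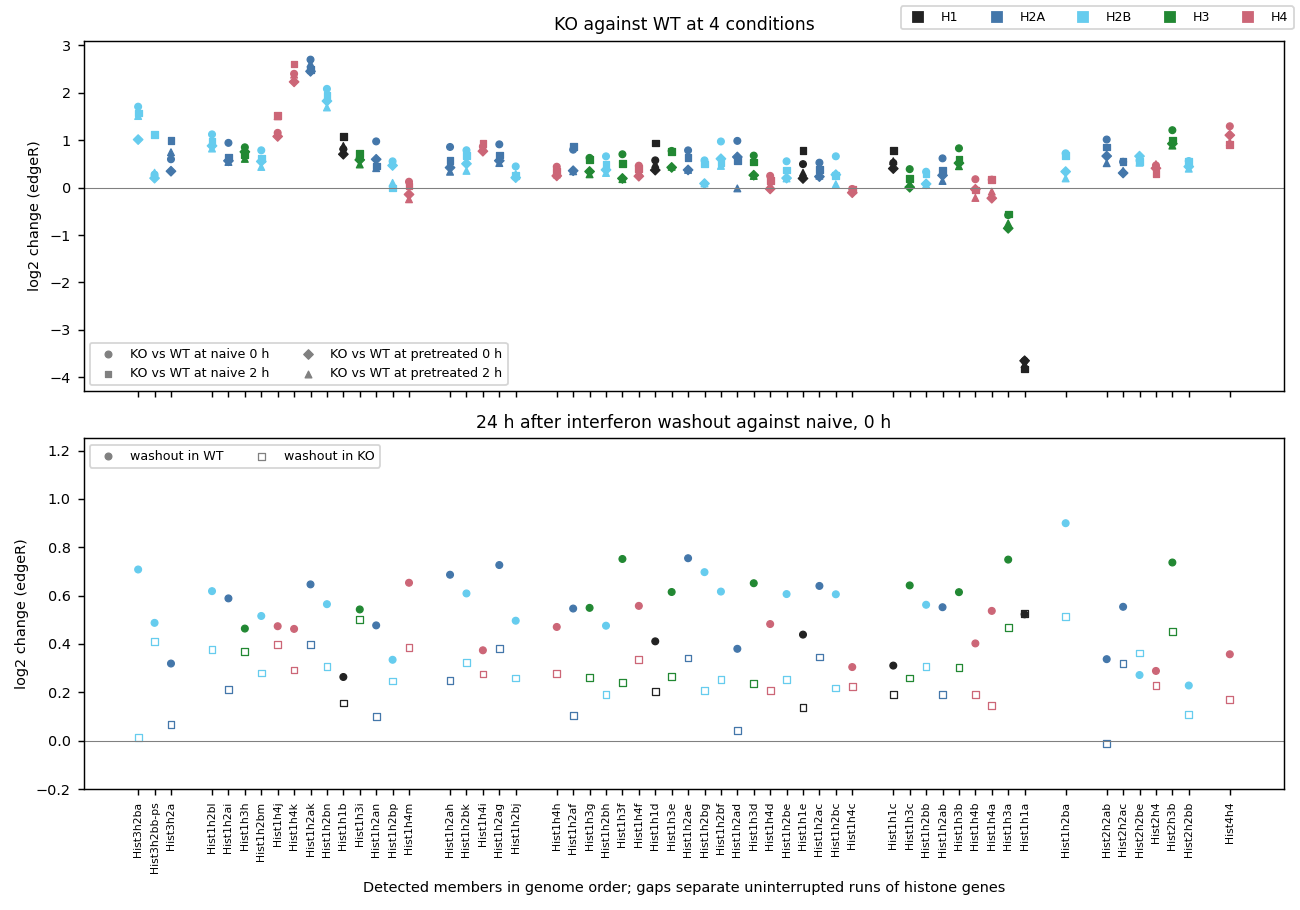
Log2 change of each detected member in genome order, with gaps between runs; KO against WT in 4 conditions (top, symbols by condition) and 24 h after IFN washout against naive in WT and in KO (bottom). The 4 chromosome 13 genes with changes above 1 in every condition lie in 1 run, Hist1h1a is near -3.7, and nearly all washout values are above 0.

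Washout was compared as pretreated 0 h against naive 0 h, the state 24 h after a 3 h pulse of IFN. The labels name no wash and no 24 h culture for naive cells. Effects of IFN and of these steps therefore cannot be told apart. In WT, all 57 members had positive log2 changes, 50 were called higher and none lower by edgeR (12.6% and 11.4% of all genes), and the median was 0.55 against 0.00 over all genes. In KO 22 were called higher and none lower (11.1% and 10.6% of all genes), with a median of 0.26, and 56 of 57 were positive. All 22 were also called in WT, where 6.79% of all genes rose in both genotypes.
By class, 5 of 5 H1, 11 of 13 H2A, 13 of 17 H2B, 9 of 10 H3 and 12 of 12 H4 genes rose in WT, and 2, 3, 7, 3 and 7 in KO. The largest called changes in WT were those of the testis-type H2B gene Hist1h2ba (0.90 ± 0.21), Hist1h2ae (0.75 ± 0.17) and Hist1h3f (0.75 ± 0.13). Hist1h2ba went from 2.62 and 2.04 CPM to 2.98 and 4.83 CPM, and Hist1h3f from 64.6 and 52.7 CPM to 68.8 and 107 CPM. In both the second pretreated library gave most of the difference.

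The size of the washout change in WT depended on that library. Without WT pretreated 0 h replicate 2, 13 members were called higher, the median was 0.21, Hist1h2ba was at 0.48 and Hist1h3f at 0.37; without replicate 1, 52 were called and the median was 0.78. The 22 calls in KO became 3 without KO naive 0 h replicate 1, 7 without KO pretreated 0 h replicate 1, 6 without its replicate 2 and 4 with DESeq2. Scaling by library size alone left 27 calls in WT and 4 in KO.
Hist1h1a had the same change in both genotypes, 0.52 ± 0.048 in WT and 0.52 ± 0.073 in KO (edgeR adjusted p = 2.09e-09 and 3.4e-06), on KO levels of 14.9 and 14.7 CPM before and 19.7 and 22.5 CPM after. In KO it was called under all 11 alternatives. No member was called for a difference in washout change between genotypes by edgeR (3.22% of all genes were); 14 had an unadjusted p below 0.05, as did 14.9% of all genes, DESeq2 called 0, and the median difference, KO minus WT, was -0.28. Without WT pretreated 0 h replicate 1, 28 were called lower in KO, and without replicate 2 none, with a median of 0.03.

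**Figure D5:**
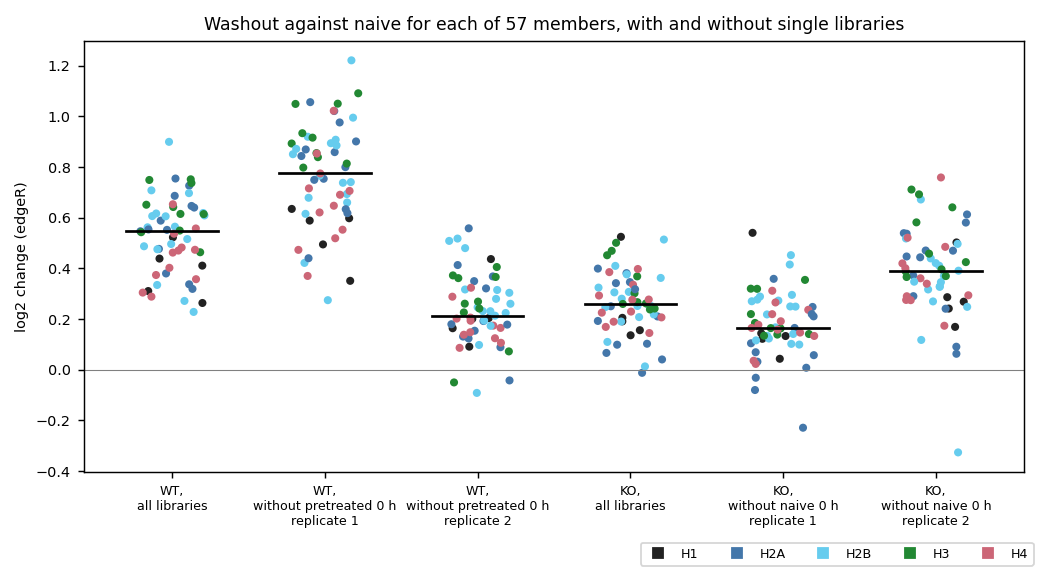
Log2 change of each of 57 members 24 h after IFN washout against naive cells (points, members by class; lines, medians), with all libraries and with single libraries left out. In WT the median of 0.55 becomes 0.78 without pretreated 0 h replicate 1 and 0.21 without replicate 2.

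IFN for 2 h in naive cells changed fewer members. In WT 14 were called higher and 3 lower, where 15% and 15.6% of all genes were, and the median log2 change was 0.23 against -0.02; with library size alone the split was 1 higher and 8 lower and the median -0.02, so the direction depends on the scaling. The 14 were all core histone genes, led by Hist1h2bc (0.56 ± 0.14), Hist1h2bp (0.49 ± 0.19) and Hist1h2an (0.49 ± 0.16). The lower calls were Hist1h1d (-0.28 ± 0.084), Hist3h2a (-0.20 ± 0.078) and Hist1h1b (-0.19 ± 0.059).
Leaving out any 1 of the 4 libraries reduced the 17 calls to between 3 and 7, with 3 without WT naive 2 h replicate 1. In KO, with 1 treated library assumed to vary like the other groups, 2 were called higher, Hist1h3i (0.46 ± 0.18) and Hist1h4i (0.36 ± 0.10), and Hist4h4 lower (-0.35 ± 0.089), where 19.1% and 17.2% of all genes were; with library size alone 0 were higher and 3 lower. Hist4h4 had 81.5 and 82.9 CPM before and 55.7 CPM after IFN in KO, and 38.5 and 32.0 CPM before and 29.4 and 32.1 CPM after in WT.
The IFN response differed between genotypes for 4 members, where 15.3% of all genes differed: Hist3h2a, Hist1h1b and Hist1h1d had a higher and Hist4h4 a lower response in KO. Leaving out single libraries left 0 to 2 members called.

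Restimulation of pretreated cells for 2 h gave 13 higher calls and no lower call in WT by edgeR (12.2% and 10.5% of all genes; median 0.15) and 12 and none in KO (17.9% and 13.6%; median 0.14). With library size alone 0 were called in WT, and 1 higher and 1 lower in KO, and the KO median was -0.01. In WT the largest were Hist1h2bp (0.50 ± 0.18), Hist1h2bc (0.40 ± 0.13) and Hist1h4i (0.35 ± 0.094), each lost without WT pretreated 0 h replicate 1 or without WT pretreated 2 h replicate 2. The WT count was 44 without pretreated 0 h replicate 2, 4 without its replicate 1 and 3 without pretreated 2 h replicate 2, and the KO count was 26 without pretreated 2 h replicate 1.
In KO the H2A gene Hist3h2a rose from 51.5 and 58.8 CPM to 72.7 and 74.2 CPM (0.57 ± 0.065, edgeR adjusted p = 2.35e-08), with no overlap and under all 11 alternatives. In WT it had 37.9 and 44.0 CPM before and 44.7 and 45.0 CPM after. Hist1h4i (0.42 ± 0.077) and the H4 gene Hist2h4 (0.41 ± 0.057) followed in KO and were lost only with library size alone. Hist3h2a was the 1 member whose restimulation response differed between genotypes (9.03% of all genes did).

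Genes that work with these transcripts were described from lists, beside the histone changes. Of 13 listed factors for stem-loop processing 12 were in the files; after washout 5 were called higher and none lower in WT (12.6% and 11.4% of all genes), and 5 higher and 2 lower in KO (11.1% and 10.6%). Slbp, whose product binds the stem-loop, rose after washout by 0.29 ± 0.056 in WT and 0.22 ± 0.053 in KO, and lay at 41.9 to 58.0 CPM in WT and 45.3 to 72.4 CPM in KO libraries. Against WT it was higher in KO at naive 0 h (0.24 ± 0.055, edgeR adjusted p = 0.000334) and not called at pretreated 2 h (-0.03 ± 0.055). Casp8ap2, which with NPAT and LSM11 acts at histone genes, rose by 0.36 ± 0.048 in WT and 0.18 ± 0.046 in KO after washout.
Of 9 transcriptional regulators 4 were called higher and none lower after washout in WT (12.6% and 11.4% of all genes). In KO 2 were higher and none lower (11.1% and 10.6%). Among them Ccne2 rose by 0.67 ± 0.087 in WT and 0.74 ± 0.084 in KO. Ccne1, the cyclin that drives S-phase entry and NPAT phosphorylation with CDK2, was lower in KO in all 4 conditions, from 32.7 to 47.8 CPM in WT to 14.6 to 24.3 CPM (log2 -0.997 ± 0.071 at naive 0 h). Of 9 S-phase histone chaperones 7 rose after washout in WT and 8 in KO (12.6% and 11.1% of all genes). Asf1b was higher in KO in all 4 conditions (0.86 ± 0.065 at naive 0 h). At naive 0 h 5 chaperones were higher in KO and 2 lower, and 3 regulators were higher and 2 lower. Of the processing factors 7 were higher and 3 lower there, where 34.3% of all genes were higher and 32.7% lower. Of 6 histone mRNA decay genes 1 was higher and 2 lower in KO at naive 0 h. At pretreated 0 h 1 was higher and 4 lower, and at pretreated 2 h 3 and 3. Of 7 tested non-polyadenylated RNAs 1 was higher and 3 lower at naive 0 h, and 1 and 4 at both pretreated times. The shares over all genes were those given for the knockout comparison of members.
Cell-cycle genes moved with washout: 27 of 28 G1/S genes (median 0.41) and 20 of 22 G2/M genes (median 0.29) were called higher in WT, and 25 and 17 in KO (medians 0.28 and 0.18). The shares over all genes were those given for the washout members. In KO against WT at naive 0 h, 15 G1/S genes were higher and 4 lower (median 0.13) and 16 G2/M genes higher and 2 lower (median 0.23), where 34.3% of all genes were higher and 32.7% lower and the histone median was 0.66. At pretreated 0 h, 8 G1/S genes were higher and 11 lower (median -0.04) and 10 G2/M genes higher and 4 lower (median 0.05), with 32.8% and 31.8% of all genes and a histone median of 0.38. Whether the cell-cycle state has a part in the histone differences was not tested.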

How the data were processed

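RNA-seq libraries from 15 samples were analysed. Per the labels' protocols, total RNA was extracted with TRIzol, and libraries were made with a NuGEN Ovation kit and sequenced as read pairs; poly(A) selection is not named. The submitters' processing notes name bcl2fastq 2.15, STAR 2.5.2b, HTSeq and mm9; the counting's strand setting and annotation: not given in the sources used here. The values are gene counts as deposited by the authors, with the 5 HTSeq summary lines left out (the no-feature line was 35.1% to 41.3% of gene, no-feature and ambiguous counts together).

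CPM is the count per 1000000 gene counts. Tests used edgeR 4.0.16 (R 4.3.3): TMM factors, filterByExpr with a minimum count of 10, 1 model of 8 group means and 13 contrasts fitted to all libraries (residual degrees of freedom: 7), called at an adjusted p below 0.05; SE is the log2 change over the root of F. The fit was checked on simulated counts. DESeq2 1.42.0, other scalings, filters, a replicate block and leaving out libraries were alternatives. Over all tested genes, differences between replicates 1 and 2 did not correlate between groups (correlation -0.018 to 0.064). In the members the median log2 ratio of replicate 2 to replicate 1 was 0.01 to 0.55 in the 7 pairs (TMM-scaled counts). A replicate effect shared by the members was not tested. Named genes were the highest member of each class, up to 3 called changes in each direction per comparison, and up to 3 genes per list; others, such as Hist1h4c and Hist1h4j, were added after their values were seen. Members and lists were chosen with earlier results of these data known. Gene order is from GENCODE M21 and promoters from RefSeq, both GRCm38; counts were made on mm9. Replicates differed by 1.93 to 4.81 times the counting variance, so none was a repeat deposit.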

Additional observations from a re-analysis of the deposited data

Results flagged for a closer look

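These 5 responses were flagged because the genotypes differed by a test of the interaction (edgeR, adjusted over all genes).
The response to 2 h of IFN in naive cells, KO minus WT, differed by 0.394 (log2) for Hist3h2a (adjusted p = 0.0169), 0.273 for Hist1h1b (0.0356), 0.366 for Hist1h1d (0.0498) and -0.383 for Hist4h4 (0.031). The KO arm has 1 treated library. These 4 lost the call under 4, 9, 9 and 6 of 13 alternatives.
The restimulation response of Hist3h2a differed by 0.401 (adjusted p = 0.00591); the difference was 0.261 without WT pretreated 0h replicate 2 and 0.29 without WT pretreated 2h replicate 1, neither called.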

How the results depend on the processing

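The knockout differences depended least on the processing. At naive 0 h, 42 to 54 members were called under every alternative, against 52. At naive 2 h the 44 calls became 30 with DESeq2 and 35 to 41 without single libraries, and at pretreated 0 h the 41 calls became 28 to 53 without single libraries. At pretreated 2 h the 39 calls became 21 with DESeq2 and 22 to 43 without single libraries.

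The treatment counts were less stable. After IFN, the 17 WT calls became 9 with library size alone, 35 without the low-count filter, 35 in a fit of the compared groups alone, 4 with DESeq2 and 3 to 7 without single libraries; the 3 KO calls became 21, 19 and 3 to 8 without the filter, in the groups alone and without single libraries. The 50 washout calls in WT became 27 with library size alone and 13 to 52 without single libraries; the 22 in KO became 4 with library size alone, 47 without the filter, 42 in the groups alone, 4 with DESeq2 and 3 to 24 without single libraries. The 13 restimulation calls in WT became 0, 28, 4, 5 and 3 to 44 in that order, and the 12 in KO 2, 30, 20, 6 and 9 to 26.

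For the genotype differences, the 4 IFN calls became 2 with RLE factors, 0 with library size alone, 9 without the filter, 9 in the groups alone, 1 with DESeq2 and 0 to 2 without single libraries. The 0 washout calls became 18 without the filter and 0 to 28 without single libraries. The 1 restimulation call became 0 with library size alone, 2 without the filter and 0 to 11 without single libraries.

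With the replicate number as a block, members called were 30 for IFN in WT, 27 for IFN in KO, 42 for washout in KO, 20 and 19 for restimulation in WT and KO, 2 for the washout difference and, in the naive 0 h knockout comparison, 52. The labels do not say what libraries with the same number share, and the cause of these moves was not tested.

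Of 47 named member results, 23 kept their call under every alternative run for them, 24 lost it under at least 1, and 0 reversed. With library size alone the member medians for IFN were -0.018 in WT and -0.0964 in KO. With 2 libraries or 1 per group, the spread comes from 7 residual degrees of freedom shared by all groups.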
